A study of Mus musculus with 2 samples.

Results

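The genes described here encode the collagens, the laminin chains and a set of other matrix and mesenchymal proteins. They were taken by symbol from a RefSeq gene table, as all genes named Col and a digit, or Lama, Lamb or Lamc and a digit, together with Sparc, Fn1, Nid1, Nid2, Hspg2, Dcn, Lum, Bgn and Vim. The rule used no measured value. It gave 64 genes, of which 63 had a probe named by its transcript accession, among 20655 genes with a named probe in all. Col12a1 was not analysed here because none of the named probes carried its accession. The 63 genes were represented by 89 probes.

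The SoNar-high group held blood cells of mouse fetal liver at E13.5, strain label C57BL/6, with a high SoNar fluorescence ratio (405 nm over 488 nm), and the SoNar-low group held cells of the same tissue and stage with a low ratio, strain label C57BL. SoNar is a genetically encoded sensor of the cytosolic NADH/NAD+ state, so both groups carried the sensor, and the sources used here do not name the promoter that drives it. Total RNA of each group was hybridised to 1 array in 1 colour (Cy3). The comparison asks how expression differs with the sensor ratio. No replicate check and no p-value can be had from 1 array per group, and the precision of every value is limited by the number of arrays.

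Collagens are secreted proteins whose chains wind into triple helices. Fibrillar collagens build the fibres of connective tissue, whereas collagen IV, the laminins, the nidogens and the heparan sulfate proteoglycan perlecan build basement membranes, the thin sheets under epithelia and around vessels. In fetal liver such genes are chiefly known from stellate and other mesenchymal cells, endothelium and hepatic cells, and less from the blood cells that develop beside them.

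The sequences below are the stretches just upstream of the annotated starts of 4 of these genes, shown because the genes were at least 2-fold higher in SoNar-high cells, and chosen after their values were seen. They are from RefSeq (GRCm38.p6), run 5′ to 3′ on the gene's strand, and cover the 250 bases before the start, except for Hspg2, where they cover bases 250 to 53 before it and stop where the annotated span of the gene begins. The Nid1 stretch overlaps the end of the pseudogene Gm7426. Capitals mark matches to CCAAT (or ATTGG on the other strand) and to GGGCGG (or CCGCCC). Matches to TATAAA (or TTTATA) would also be in capitals, and none of the 4 held one.
Col1a2, chr6:4505368-4505617, plus strand: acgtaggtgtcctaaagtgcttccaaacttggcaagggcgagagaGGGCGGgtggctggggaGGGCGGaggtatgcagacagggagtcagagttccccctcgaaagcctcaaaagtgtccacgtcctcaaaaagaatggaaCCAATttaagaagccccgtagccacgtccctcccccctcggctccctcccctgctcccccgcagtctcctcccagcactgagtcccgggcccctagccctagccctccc
Nid1, chr13:13437352-13437601, plus strand: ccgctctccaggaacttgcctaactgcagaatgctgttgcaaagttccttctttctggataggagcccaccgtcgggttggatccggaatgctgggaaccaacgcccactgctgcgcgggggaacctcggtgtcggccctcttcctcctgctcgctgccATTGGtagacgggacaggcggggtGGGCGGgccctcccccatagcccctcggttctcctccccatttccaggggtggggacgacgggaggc
Hspg2, chr4:137468553-137468750, plus strand: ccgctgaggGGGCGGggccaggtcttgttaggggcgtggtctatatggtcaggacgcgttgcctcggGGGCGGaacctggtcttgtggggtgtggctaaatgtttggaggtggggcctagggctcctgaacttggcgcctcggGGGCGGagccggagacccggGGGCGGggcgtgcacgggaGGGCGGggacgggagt
Sparc, chr11:55420081-55420330, minus strand: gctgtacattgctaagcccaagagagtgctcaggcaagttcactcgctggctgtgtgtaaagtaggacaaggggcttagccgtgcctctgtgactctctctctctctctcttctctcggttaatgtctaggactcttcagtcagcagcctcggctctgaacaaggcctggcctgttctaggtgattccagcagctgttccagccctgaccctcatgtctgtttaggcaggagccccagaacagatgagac

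The Hspg2 stretch held 5 GC boxes (GGGCGG on either strand), the Col1a2 stretch 2 and the Nid1 stretch 1, and the Col1a2 and Nid1 stretches each held 1 CCAAT box. The Sparc stretch held none of the searched motifs and had the lowest GC content of the 4, at 54% against 62% to 70.2% in the others. The table of promoters held 49 windows for 45 of the 64 genes. A GC box lay in 27 of the 49 windows (55.1%), against 32.7% of all 32851 windows, a CCAAT box in 16 (32.7%, against 33.8% of all), and a TATAAA match in 6 (12.2%, against 12.4%). These are matches of letters and not tested sites. Col4a1 and Col4a2 lie head to head on opposite strands of chromosome 8, with annotated starts so placed that 22 bases belong to both transcripts. The stretch upstream of each start therefore lies inside the other gene, and neither is printed.

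A gene is called detected on an array where the scanner software flagged most spots of a probe as well above background, and measured where 1 probe was detected on both arrays. Not being detected sets only an upper limit on the signal. Of the 63 genes, 30 were detected in SoNar-high cells (47.6%, against 57.4% of all genes with a named probe). Of these 30, 17 were also detected in SoNar-low cells (27.0% of the 63, against 50.3% of all). Another 13 were detected only in SoNar-high cells, none only in SoNar-low cells, and 33 in neither, where 8655 of all 20655 genes were in neither. The 13 are 20.6% of the 63, where 7.84% of all genes with a named probe were detected only in SoNar-high cells and 0.736% only in SoNar-low cells. In RNA of sorted populations, fewer cells of a type and less RNA per cell cannot be told apart.

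The flag was set for 49.4% of the 43020 non-control spots of the SoNar-high array and for 42.4% of those of the SoNar-low array. Each array was scaled by the 75th percentile of its processed signal, which was 186.5 units for SoNar-high and 222.2 units for SoNar-low. The lowest signal well above background was 30.2 units in SoNar-high cells and 37.1 units in SoNar-low cells, and negative controls had an SD of 3.64 and 5.82 units in the same order of arrays. No spot was saturated, and both arrays came from the same slide.

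**Figure D1:**
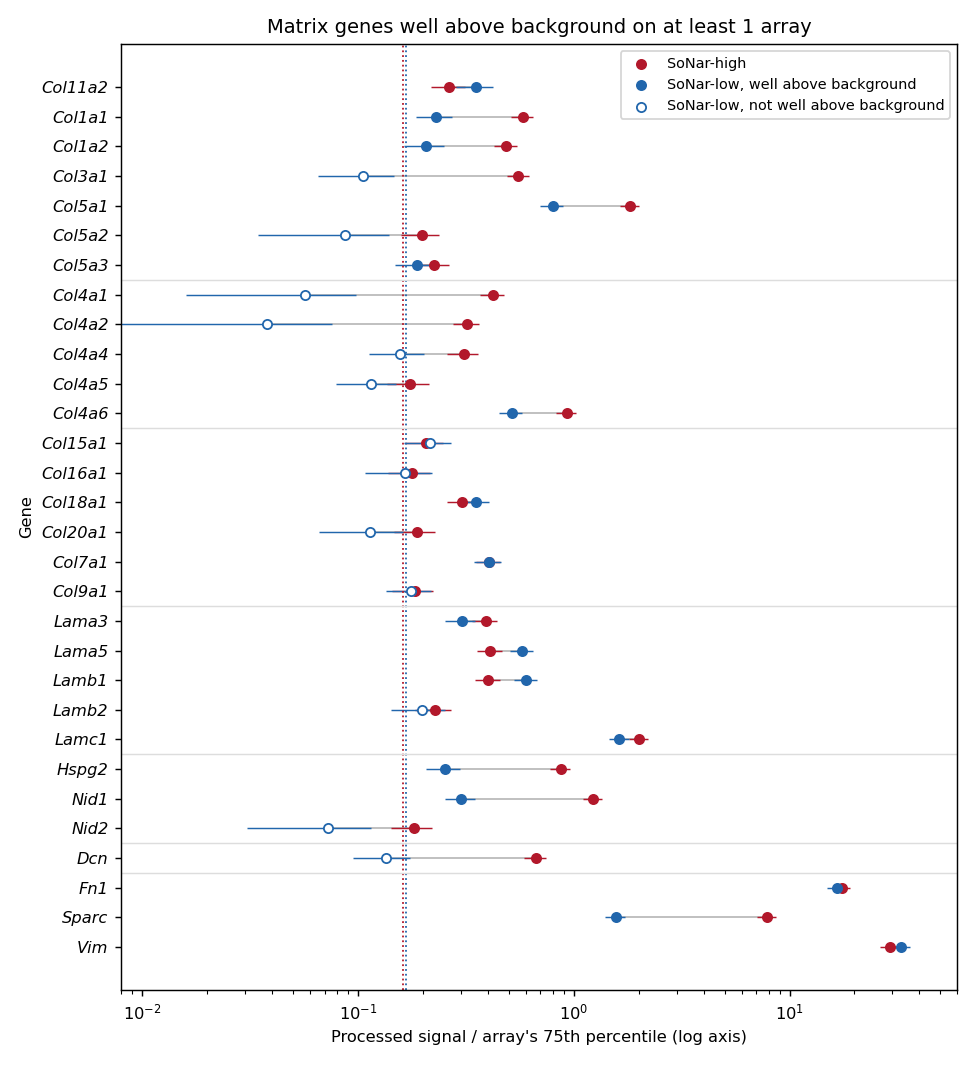
Processed signal divided by the array's 75th percentile (log axis) of the 30 genes well above background on at least 1 array, grouped by protein family. Filled red points are the SoNar-high array and blue points the SoNar-low array, open where not well above background, bars are the scanner software's error of 1 spot (1 bar runs past the left edge), and dotted lines are the lowest signals well above background. All 13 open points belong to the SoNar-low array.

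Differences are scaled log2 values of SoNar-high minus SoNar-low, and a positive one is higher in SoNar-high cells. The error beside a signal is the scanner software's estimate for 1 spot, and that beside a difference combines the estimates of both arrays. These errors cover the spot and not the animal, the sort or the labelling. Of the 17 measured genes, 6 were at least 2-fold higher in SoNar-high cells (35.3%), none was at least 2-fold lower and 11 were within 2-fold. Among all 10223 measured genes, 5.28% lay at least 2-fold higher and 4.44% were lower by 2-fold or more. The median difference was 0.31 over the 17 genes and -0.08 over all measured genes. The 6 genes were Sparc, Nid1, Hspg2, Col1a1, Col1a2 and Col5a1. A difference exceeded 2 of its errors in 8 of the 17 genes, 7 positive and 1 negative. The share of all measured genes past 2 errors was not counted, so this split has no background to be set against.

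The higher count depended on the processing. Normexp subtracts the local background, models what remains of it and adds an offset, here of 50 units. The part of the offset alone was not tested. After normexp, 3 of the 17 genes were at least 2-fold higher (Sparc, Nid1 and Hspg2), against 2.46% of all genes. Hspg2 was at 1.00 and on the threshold. None of the 17 genes was at least 2-fold lower, against 2.51% of all genes. With signals of at least 100 units required on both arrays, 6 of the 17 genes were left, and Sparc and Col5a1 were the 2 at least 2-fold higher, where 4.22% of the 7800 genes left were higher and 4.03% lower by as much.

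**Figure D2:**
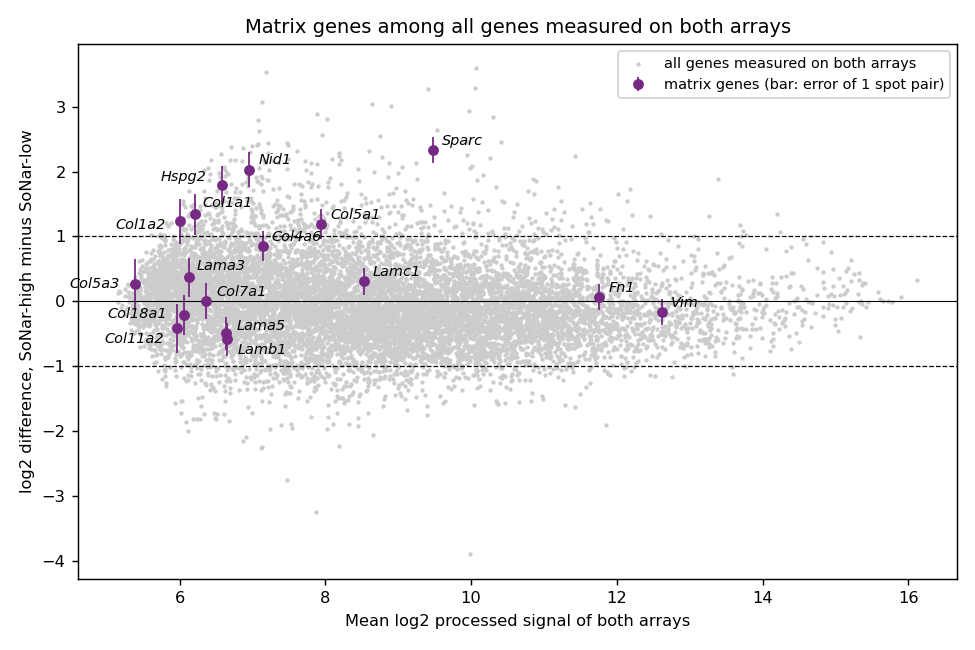
Difference (log2, SoNar-high minus SoNar-low) against mean log2 processed signal for all 10223 measured genes (grey) and the 17 matrix genes (purple, bars are the error of 1 spot pair). Dashed lines mark 2-fold, and 6 matrix genes lie above the upper line and none below the lower one.

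Sparc encodes a secreted collagen-binding glycoprotein of matrix and basement membrane. Its brighter probe read 1470.2 ± 147 units on the SoNar-high array, against 348 ± 36.0 units on the SoNar-low array. It was 5.04-fold higher in SoNar-high cells (2.33 ± 0.21), and 0.254% of measured genes had a larger difference. Its other probe read 47.8 units in SoNar-high cells and 25.2 units in SoNar-low cells, where it was not detected. Across the processing settings the difference of Sparc lay between 2.06 and 2.53, so Sparc was more than 2-fold higher under each of them.

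Fn1 and Vim differed little between the arrays. Fn1 encodes fibronectin, an adhesive glycoprotein that many cell types and blood plasma contain. It read 3248 ± 325 units on the SoNar-high array and 3692 ± 369 units on the SoNar-low array, a difference of 0.07 ± 0.20, which lay between -0.04 and 0.30 across settings and so had no settled sign. Vim encodes vimentin, an intermediate filament protein inside the cell and not a matrix protein, which leukocytes and mesenchymal cells both make. It read 5453 ± 545 units on the SoNar-high array and 7287 ± 729 units on the SoNar-low array, a difference of -0.17 ± 0.20 (-0.22 to 0.06 across settings, again with no settled sign). Both differences were smaller than their errors.

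Among the basement membrane linkers, the nidogen Nid1 and perlecan (Hspg2) were higher in SoNar-high cells. Nid1, which bridges laminin and collagen IV, read 229.6 ± 23.8 units on the SoNar-high array and 66.9 ± 10.8 units on the SoNar-low array. It was 4.09-fold higher (2.03 ± 0.28), or 1.27 after normexp. Of its other probes, 1 was detected only in SoNar-high cells (41.2 units, against 25.0 units in SoNar-low cells) and 1 on neither array, so the size given is that of a single probe. Hspg2 read 162.8 ± 17.4 units on the SoNar-high array and 56.0 ± 9.99 units in SoNar-low cells and was 3.46-fold higher (1.79 ± 0.30). Its other probe was detected on neither array, with 6.32 units in SoNar-high cells and 8.40 units in SoNar-low cells. The nidogen Nid2 read 33.8 units on the SoNar-high array and 16.2 units on the SoNar-low array, where it was not detected.

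For a gene detected only in SoNar-high cells, the fold is a lower bound. It sets the scaled SoNar-high signal against the scaled SoNar-low signal or the lowest scaled signal well above background on the SoNar-low array, whichever is higher. The 13 genes of this kind read 32.6 to 124.1 units on the SoNar-high array, 8 of them under 50 units. In 3 of the 13 the bound was at least 2-fold (Dcn, Col3a1 and Col4a1), where 12.5% of the 1620 genes of this kind had such a bound. After normexp none of the 3 bounds reached 2-fold. Lamb2, Col15a1, Col16a1 and Col9a1 had larger unscaled signals on the SoNar-low array although they were not detected there, so their detection on the SoNar-high array alone does not show a higher level. With quantile normalization the bounds of Nid2, Col4a5, Col5a2 and Col20a1 fell to 0.81, 0.78, 0.90 and 0.84-fold, which does not show a higher level either.

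Of the 6 collagen IV genes, 5 were detected in SoNar-high cells and 1, Col4a6, on the SoNar-low array. Collagen IV forms the network of basement membranes, and the Col4a1 and Col4a2 chains assemble with each other in nearly all of them. The Col4a1 probe was printed 10 times, and 9 spots were used on each array after 1 outlier was left out on each. These spots lay between 70.0 and 83.9 units (median 79.3) on the SoNar-high array and between 7.51 and 17.5 units (median 12.6) on the SoNar-low array. All 9 spots on the SoNar-high array and none on the SoNar-low array were well above background. Col4a1 was at least 2.52-fold higher in SoNar-high cells, or at least 1.56-fold after normexp.

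**Figure D3:**
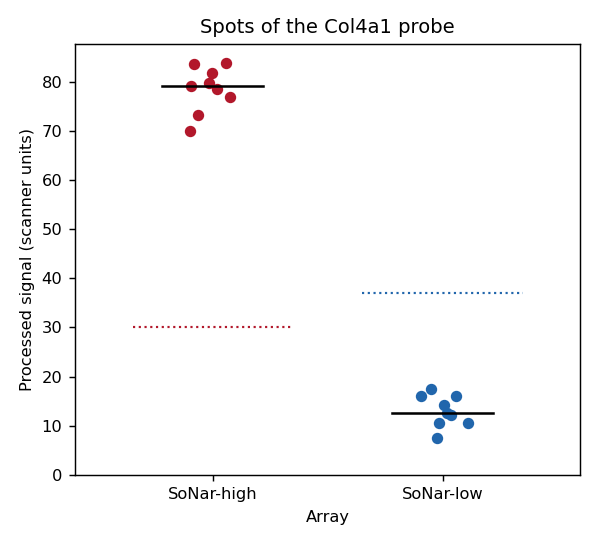
Processed signal (scanner units) of the 9 spots of the Col4a1 probe used on each array, with the median as a black line and the lowest signal well above background on that array as a dotted line. The spots are repeats within an array and not biological replicates. SoNar-high spots lie between 70.0 and 83.9 units and SoNar-low spots between 7.51 and 17.5 units.

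Col4a2 read 59.7 ± 8.49 units on the SoNar-high array and 8.44 ± 8.41 units on the SoNar-low array, where the error was about as large as the signal. Its bound was at least 1.92-fold. Col4a4 and Col4a5, chains of the collagen IV of kidney and other specialised basement membranes, were detected only in SoNar-high cells. Col4a4 read 57.8 units there and 34.9 units in SoNar-low cells (bound 1.86-fold). Its other probes were detected on neither array, with 16.9 and 14.9 units in SoNar-high cells and 8.30 and 12.8 units in SoNar-low cells. Col4a5 read 32.6 units in SoNar-high cells and 25.4 units in SoNar-low cells (bound 1.05-fold, or 0.78-fold with quantile normalization). Col4a6 was measured on both arrays, with 173.3 ± 18.5 units on the SoNar-high array and 114.4 ± 14.1 units on the SoNar-low array. Its difference of 0.85 ± 0.24 was under 2-fold and larger than 2 errors. Across settings it lay between 0.54 (normexp) and 1.03 (75th percentile of detected probes). The other Col4a6 probe was detected on neither array, with 13.9 units in SoNar-high cells and 11.7 units in SoNar-low cells. Col4a3 was not detected on either array.

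Of the 11 fibrillar collagen genes, 5 were measured, and 3 of these (Col1a1, Col1a2 and Col5a1) were at least 2-fold higher in SoNar-high cells. Another 2 were detected only in SoNar-high cells and 4 on neither array. Col1a1 and Col1a2 encode the chains of collagen I, the main collagen of bone, tendon and scar, on chromosomes 11 and 6. Col1a1 read 108.1 ± 12.5 units on the SoNar-high array and 50.9 ± 9.79 units in SoNar-low cells and was 2.53-fold higher (1.34 ± 0.32). Col1a2 read 90.5 ± 11.1 units on the SoNar-high array and 45.9 ± 9.50 units in SoNar-low cells and was 2.35-fold higher (1.23 ± 0.35). The differences of this pair lay within their errors of each other. After normexp Col1a1 had 0.67 and Col1a2 0.64, both under 2-fold.

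Col5a1, a chain of collagen V, which is incorporated into collagen I fibrils, was above 100 units on both arrays. It read 340.0 ± 34.8 units on the SoNar-high array and 177.5 ± 21.7 units in SoNar-low cells and was 2.28-fold higher (1.19 ± 0.23), or 1.00 and just under 2-fold after normexp. Its partner chain Col5a2 read 36.9 units on the SoNar-high array and 19.3 units on the SoNar-low array (bound 1.18-fold, or 0.90-fold with quantile normalization). Col5a3, a further collagen V chain, read 41.9 ± 7.55 units in SoNar-high cells and 41.6 ± 8.55 units in SoNar-low cells. Its difference of 0.26 ± 0.39 lay between -0.08 and 0.44 across settings and had no settled sign.

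Col3a1, the chain of collagen III of vessels and soft organs, read 103.1 ± 12.1 units on the SoNar-high array and 23.6 ± 9.14 units on the SoNar-low array, where it was not detected. It was at least 3.31-fold higher in SoNar-high cells, or at least 1.83-fold after normexp. Col11a2, a chain of the collagen XI of cartilage, lay in the other direction (-0.42 ± 0.38), but had only -0.03 after normexp. It read 49.4 ± 8.87 units on the SoNar-high array and 78.5 ± 15.0 units on the SoNar-low array. Col2a1, Col11a1, Col24a1 and Col27a1 were not detected on either array.

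Dcn encodes decorin, a small proteoglycan that binds collagen fibrils. It read 124.1 ± 14.0 units on the SoNar-high array and 29.9 ± 8.75 units on the SoNar-low array, where it was not detected, and was at least 3.98-fold higher in SoNar-high cells, or at least 1.98-fold after normexp. This was the highest bound among the 13 genes. The related proteoglycans Lum (lumican) and Bgn (biglycan) were not detected on either array, although Lum is the neighbour of Dcn on chromosome 10.

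Of the 11 laminin chain genes, 4 were measured, and none of these reached 2-fold in either direction. Laminins are cross-shaped trimers of an alpha, a beta and a gamma chain that start the assembly of basement membranes. Lamc1, the gamma chain of most laminins, had 376 ± 38.1 units on the SoNar-high array and 362 ± 37.3 units on the SoNar-low array (0.31 ± 0.21). Lamb1, a beta chain, read 75.03 ± 9.72 units on the SoNar-high array and 133.9 ± 16.0 units in SoNar-low cells, and its difference of -0.58 ± 0.25 was the lowest of the 17 genes and the 1 negative difference beyond 2 errors. Lama5, an alpha chain of many adult and fetal basement membranes, read 76.6 ± 10.1 units on the SoNar-high array and 128.4 ± 15.7 units on the SoNar-low array (-0.49 ± 0.26).

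The differences of Lamb1 and Lama5 stayed negative under every setting, between -0.71 and -0.29 for Lamb1 and between -0.62 and -0.24 for Lama5. Lama3, an alpha chain of the laminin under epithelia, read 72.9 ± 9.78 units on the SoNar-high array and 67.2 ± 10.7 units on the SoNar-low array (0.37 ± 0.30). The other Lama3 probe was detected on neither array, with 6.57 units in SoNar-high cells and 7.98 units in SoNar-low cells. Lamb2 read 42.3 units on the SoNar-high array and 43.9 units on the SoNar-low array, where it was not detected. Lama1, Lama2, Lama4, Lamb3 and Lamc3 were not detected on either array.

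Of the 26 other collagens with a probe, 20 were not detected on either array, 2 were measured and 4 were detected only in SoNar-high cells. Col18a1, whose chain carries heparan sulfate in basement membranes and yields the fragment endostatin, read 56.8 ± 8.56 units on the SoNar-high array and 77.9 ± 11.8 units on the SoNar-low array (-0.20 ± 0.31). Another Col18a1 probe was detected only in SoNar-low cells, with 31.2 units in SoNar-high cells and 49.2 units in SoNar-low cells. Col7a1, the anchoring fibril collagen of skin, read 75.3 ± 9.79 units on the SoNar-high array and 89.5 ± 12.6 units on the SoNar-low array, a difference of 0.00 ± 0.28 whose sign depended on the setting (-0.15 to 0.18). Neither of the differences of these 2 genes exceeded its error. Col15a1, Col16a1, Col20a1 and Col9a1 read 33.1 to 38.5 units on the SoNar-high array, and none of them had a bound above 1.12-fold. Their other probes were detected on neither array.

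The 20 genes of this class not detected on either array were all 6 collagen VI genes with a probe (Col6a1 to Col6a6), Col8a1, Col8a2, Col9a2, Col9a3, Col10a1, Col13a1, Col14a1, Col17a1, Col19a1, Col22a1, Col23a1, Col25a1, Col26a1 and Col28a1. Among all 33 genes on neither array, signals lay between 6.16 and 39.7 units on the SoNar-high array and between 7.42 and 38.3 units on the SoNar-low array. On the genome, 10 pairs of the 64 genes are neighbouring protein-coding genes. In 3 pairs (Col4a1 and Col4a2, Col3a1 and Col5a2, Col4a6 and Col4a5) both genes were detected in SoNar-high cells, and in 3 pairs, all of collagen VI, neither gene was detected on either array.

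**Figure D4:**
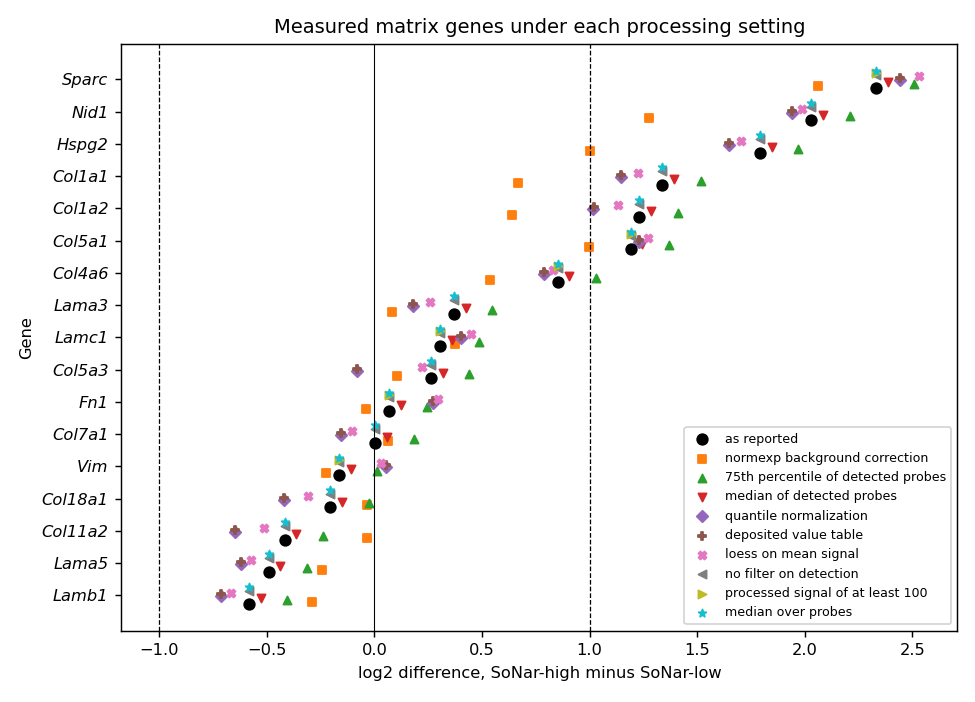
Difference (log2, SoNar-high minus SoNar-low) of the 17 measured matrix genes as reported (black circles) and under each of 9 other processing settings (coloured symbols), with dashed lines at 2-fold. Normexp (orange squares) gives the smallest differences for the 3 highest genes, and 13 of the 17 genes keep their sign under every setting, the exceptions being Fn1, Vim, Col5a3 and Col7a1.

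Genes that process collagen chains were compared next, from a list that shares no gene with the 64. Of 31 such genes, 13 were measured, 5 of which were at least 2-fold higher in SoNar-high cells and none lower by as much. Their median was 0.43. Fkbp10, a collagen chaperone with prolyl isomerase activity, read 134.9 units in SoNar-high cells and 59.0 units in SoNar-low cells (1.45, or 0.83 after normexp). Serpinh1, the collagen chaperone HSP47, read 361 units on the SoNar-high array and 178 units on the SoNar-low array (1.27). The lysyl hydroxylase Plod3 read 866 units on the SoNar-high array and 469 units on the SoNar-low array (1.14). The other 2, Pxdn (peroxidasin, which crosslinks collagen IV, 1.12) and the prolyl hydroxylase P3h1 (1.04), were named after their values were seen. P4hb, a subunit of prolyl hydroxylase that also works as a general disulfide isomerase, had 0.35, with 5102 units on the SoNar-high array and 4753 units on the SoNar-low array.

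After normexp 1 of these 5 genes, Plod3 (1.07), was at least 2-fold higher. A further 7 genes of the list were detected only in SoNar-high cells, and 3 of them had a bound of at least 2-fold, namely the prolyl hydroxylase subunit P4ha3 (4.06-fold), the procollagen enhancer Pcolce (3.53-fold) and the lysyl hydroxylase Plod1 (2.71-fold), each named after its value was seen. Of these bounds only that of P4ha3 reached 2-fold after normexp (2.02-fold). The prolyl hydroxylase subunits P4ha1 and P4ha2 and the lysyl hydroxylase Plod2 were among 11 genes of the list not detected on either array. So were the lysyl oxidases Loxl3 and Loxl4. Of the other lysyl oxidases, Lox and Loxl1 were detected only in SoNar-high cells (bounds 1.35-fold and 1.23-fold). Loxl2 was measured, with 0.38 (0.22 after normexp). These lysyl oxidases were named after their values were seen.

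Of 31 listed receptors that bind matrix, 13 were measured and none of these differed by 2-fold, with a median of 0.13. Itgb5 (integrin beta 5) had 0.93, the collagen receptor Lair1 -0.45 and Itgb3 (integrin beta 3) 0.42, and Rpsa, a ribosomal protein also known as a laminin receptor, had 0.14 (-0.04 after normexp, so with no settled sign). Itga7, an alpha chain of laminin-binding integrins, and the syndecan Sdc3 were detected only in SoNar-high cells, with bounds of 4.70-fold and 2.11-fold, or 2.29-fold and 1.44-fold after normexp, and were named after their values were seen.

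Of 27 matrix proteases and their inhibitors, 7 were measured and 4 were at least 2-fold higher in SoNar-high cells, with a median of 1.81. Mmp9 (gelatinase B, 3.27), Mmp8 (neutrophil collagenase, 2.46) and the inhibitor Timp2 (1.89) had the largest differences, followed by Timp1 (1.81, named after its value was seen). All 4 stayed at least 2-fold higher after normexp. Mmp8 is also on the list of neutrophil markers. The stromal proteases Mmp2, Mmp3 and Mmp13 were not detected on either array.

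Of 48 other matrix proteins, 10 were measured with a median of 0.64, and 1 was at least 2-fold higher while none was lower by that much. The 1 gene was Thbs1 (thrombospondin 1), with 11098 units in SoNar-high cells and 6599 units in SoNar-low cells (1.00, on the threshold). Agrn (agrin, a basement membrane proteoglycan) had 0.89 and Ltbp4, which binds latent TGF-beta, 0.87. Vtn (vitronectin) was detected only in SoNar-high cells, with a bound of 3.72-fold (1.94-fold after normexp), and Fbln1 (fibulin 1) only on the SoNar-low array, at least 1.80-fold lower in SoNar-high cells (1.1-fold after normexp), both named after their values were seen. The fibroblast matrix genes Postn, Eln and Fbn1 were among 29 genes not detected on either array.

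None of the 11 measured genes out of 16 of TGF-beta signalling, a pathway known to raise collagen genes, differed by 2-fold, and their median was -0.08, or 0.03 after normexp. The inhibitory Smad7 and Smad6 had -0.79 and -0.77, and Tgif1, a repressor of the pathway, had -0.56.

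**Figure D5:**
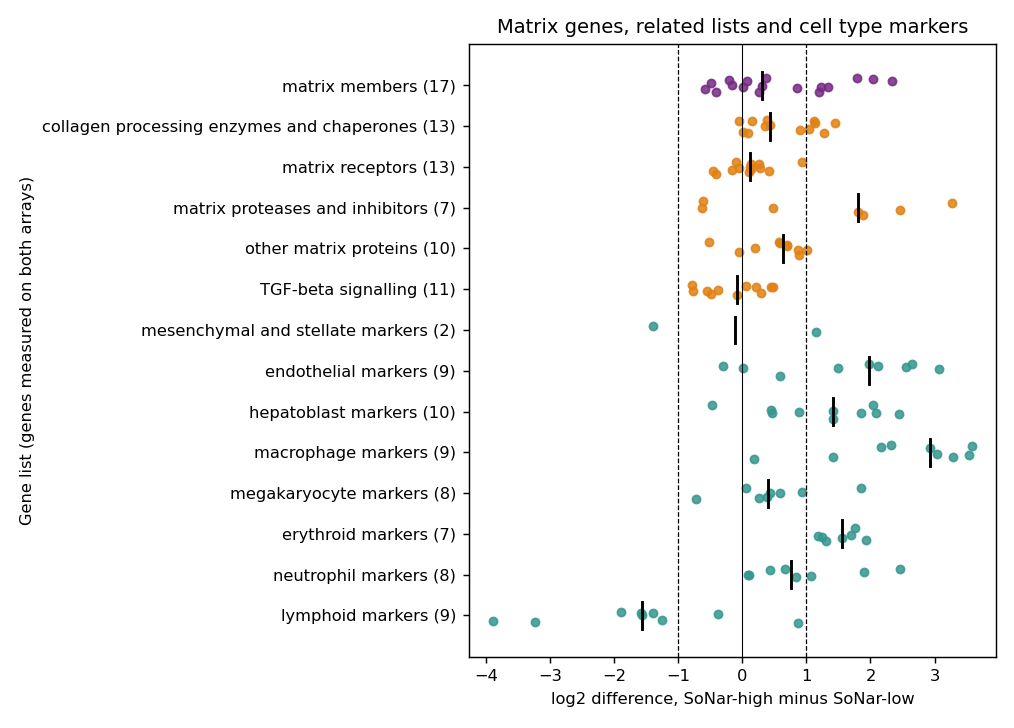
Difference (log2, SoNar-high minus SoNar-low) of each measured gene (points) and the median (black bar) for the matrix genes (purple), related matrix lists (orange) and cell type markers (green), with the number of measured genes in brackets and dashed lines at 2-fold. The median is 0.31 for the matrix genes, 2.93 for macrophage markers and -1.56 for lymphoid markers.

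Markers of the cell types that the sort could hold were read beside these values, with summed signals given after scaling, as multiples of each array's 75th percentile, and their part in the differences was not tested. Blood cell markers were present on both arrays, as the sample label says, with 7 of 8 erythroid, 8 of 8 neutrophil and 9 of 9 lymphoid markers measured. Of 17 endothelial markers, 9 were measured and 6 were at least 2-fold higher in SoNar-high cells (median 1.98), among them Cdh5 (3.07), Stab2 (2.64) and Lyve1 (2.56). Egfl7 had -0.31, and Pecam1 (0.01) and Esam (0.58), named after their values were seen, were also within 2-fold. Egfl7 was the brightest of the list, with 2604 units in SoNar-high cells and 3843 units in SoNar-low cells. After normexp 5 endothelial markers were at least 2-fold higher, and Cdh5 had 1.91 and Lyve1 1.94. The summed scaled signal of that list was 40.7 in SoNar-high cells and 24.1 in SoNar-low cells, and Tie1, Emcn, Sox18, Erg and Flt4 were not detected on either array. Of 16 hepatoblast markers, 10 were measured and 6 were at least 2-fold higher (median 1.42), including Fgg (2.44), Serpina1a (2.09), Fgb (2.04) and Afp (1.42), with sums of 94.0 for SoNar-high and 35.5 for SoNar-low. After normexp 6 were again at least 2-fold higher, with Fgg at 1.65 and Fgb at 1.31. Krt18 lay lower at -0.47 (-0.40 after normexp), and Dlk1 had 0.46 and Hnf4a 0.44. The hepatoblast markers Apoa1, Krt8 and Epcam were not detected on either array. Of 12 macrophage markers, 9 were measured and 8 were at least 2-fold higher (median 2.93), including Marco (3.59), C1qa (3.54) and C1qc (3.29) but not Csf1r (0.18), with sums of 103.2 for SoNar-high and 38.8 for SoNar-low. After normexp 8 were again at least 2-fold higher, with C1qa at 2.31.

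The 7 measured erythroid markers were all at least 2-fold higher, 5 of them also after normexp, with Epb42 at 1.93 (1.11 after normexp), Ermap at 1.76 and Slc4a1 at 1.55. Of the 8 neutrophil markers 3 were at least 2-fold higher, namely Mmp8, Lcn2 (1.89) and Ltf (1.07), and S100a9 had 0.44. Most lymphoid markers lay the other way, 7 of 9 at least 2-fold lower (6 after normexp), with Gzma at -3.90, Klrd1 at -3.24 (-2.27 after normexp) and Vpreb1 at -1.90. Among the rest, Cd79a had -0.38 (-0.18 after normexp), and Cd3e was higher in SoNar-high cells at 0.87 (0.52 after normexp). Of 10 megakaryocyte markers 8 were measured (median 0.41), with Clec1b at 1.86 (1.16 after normexp), Vwf at 0.93 and Pf4 at 0.06, and Clec1b alone was past 2-fold.

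Of 12 markers of mesenchymal and stellate cells, 2 were measured, and these differed in opposite directions. Pdgfrb, a growth factor receptor of pericytes and stellate cells, had -1.39, with 130.6 units in SoNar-high cells and 407 units in SoNar-low cells, and Acta2, smooth muscle actin, had 1.15. Both were under 2-fold after normexp (-0.86 and 0.77). Lhx2, a transcription factor of stellate cells, was at least 2.60-fold higher (1.53-fold after normexp) and was named after its value was seen. Pdgfra, Des, Lrat, Hand2, Rgs5 and Reln were not detected on either array, and the summed scaled signal of the list was 3.45 for SoNar-high and 2.99 for SoNar-low (643 and 665 units before scaling). None of 5 mesothelial markers was well above background, with scaled sums of 0.237 for SoNar-high and 0.200 for SoNar-low (44.1 and 44.5 units before scaling).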

How the data were processed

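Total RNA of 2 sorted populations, SoNar-high and SoNar-low, was hybridised to 1 array each, with groups taken from the source labels. Spot intensities and their error estimates were deposited by the authors as output of Agilent Feature Extraction, version 11.0.1.1 per the file headers and 9.1 per the submitters' processing notes, with background subtracted in the processed signal. The log2 value table deposited by the authors was normalized by a method not given in the sources used here. The 2 columns of that table have the same median (4.80) and differ by at most 0.000544 when sorted, they follow their own arrays' log2 signals (r = 0.999 each, across probes), and the direction of their difference matches that of the scanner values (r = 0.966 across measured probes). Its direction and scale could be read this way, and it served as an alternative. Its method of normalization is not stated, but its differences of the matrix genes nearly equalled those by quantile normalization. Nid1 had 1.94 and Col1a1 1.15 under both. These 2 alternatives are therefore close to 1 setting and do not count as separate checks.

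Control spots and outlier spots (225 for SoNar-high, 135 for SoNar-low) were not used. Each array's 75th percentile of the processed intensity over 43020 spots was subtracted on the log2 scale, and spots of a probe were averaged, giving 39420 probes, of which 15975 were well above background in most spots on both arrays. Each gene was represented by its brightest measured probe, so that differences are within 1 probe. Probes were named by transcript accession through RefSeq gene names (GRCm38.p6, used for names, neighbours and promoter sequences, since the array's design grid is of another build per the file headers), and 27229 matched 1 gene while 12191 stayed unnamed. No test is possible with 1 array per group, and genes were counted from 2-fold. The counting was tested on simulated data whose only noise was the spread of repeated spots. This checked the counting step and not the spread between animals, sorts or labellings.

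The text names every detected matrix gene, and of each other list the 3 measured genes with the greatest absolute difference and the gene with the greatest signal, except for a few genes that are not reported here. The genes and lists were chosen with earlier results of these data known. Alternatives were normexp (offset 50, on median spot and background signals), other scalings, quantile normalization, loess (span 0.3), the value table, 2 filters on dim probes, the median over probes and a 3-fold threshold. Python 3.11.15, pandas 2.3.3, statsmodels 0.14.6, R 4.3.3 and limma 3.58.1 were used. The rule for printing also named proteins, which were not used here, and the promoters of Col4a1 and Col4a2, which are not shown.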

Additional observations from a re-analysis of the deposited data

How the results depend on the processing

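Values were held as changed past 0.15 on the log2 scale, the typical spot SD of a difference (213 probes with 10 spots each), and counts past 1.5 times. The count of genes at least 2-fold higher, 6 as reported, was 3 after normexp, 16 of 63 genes with no filter on detection (where 12% of all genes were), 2 of 6 genes with signals of at least 100 (4.22% of all genes), and 3 with a 3-fold threshold. It was 6 or 7 under the other settings. No gene was at least 2-fold lower under any of them. The median of 0.31 became 0.11 after normexp, 0.48 with the 75th percentile taken over detected probes, a setting that also moved the median of all genes to 0.10, against -0.08 as reported, and 0.58 with signals of at least 100. With that percentile the split of all genes was 817 higher and 227 lower, against 540 and 454 as reported. The 3 bounds of at least 2-fold became 0 after normexp and 5 with the percentile over detected probes, and bounds could not be recomputed by loess, which was fitted to measured probes only. Of 142 values of single genes under alternatives, 91 stayed within that spot SD and 51 moved, and none that was at least 2-fold changed sign. With no filter on detection, with signals of at least 100 and with the median over probes, the values equalled those reported. The percentile and the median over detected probes shifted every gene by the same amount. Part of both counts was therefore fixed in advance, and they do not measure robustness. The cause of these changes was not tested. The alternative without genes that match Col and a digit but encode no collagen left out no gene. No paired analysis was possible because each group holds 1 array, and no replicate could be left out. The scanner's background limits genes under about 100 units, which were 11 of the 17 on at least 1 array.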
